A study of Homo sapiens with 4 samples.

Results

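The genes described here are transcripts known to be induced by the hypoxia-inducible factors (HIF), leaving out glycolytic enzymes. A list of 39 such genes was taken, and the 37 with 10 or more counts in 2 or more of the 4 libraries were kept, out of 14062 genes tested and 20263 listed. RNA was sequenced from HCT116, an established human colorectal carcinoma cell line labelled wild type. Cells were treated for 24 hours with HJ-23 at 30 µM, a compound the submitters call a piperine derivative, or with 0.1% DMSO as the solvent control. The DMSO content of the treated dishes is not stated. The treatment field of the treated samples reads HJ-25, while their titles read HJ-23, and the titles were used. Each group had 2 libraries, and the labels do not say whether they are independent cultures. A p-value here therefore reflects spread between libraries that may be only technical. Only this 1 line, dose and time were sampled. Oxygen was not varied by the labels, and HIF protein was not measured in these files.

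HIF is a pair of transcription factor subunits whose alpha part is hydroxylated and destroyed when oxygen is plentiful and accumulates when it is scarce. It binds a short element with the core ACGTG or GCGTG and raises genes for acid export, blood vessel growth, collagen modification, glycogen and lipid storage and chromatin demethylation. In colorectal tumours, which are often poorly supplied with blood, these genes are widely used as signs of hypoxia, although several also answer to other stress pathways.

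Total counts ran from 29769568 to 34831207 per library. Of 9 epithelial and colon markers, EPCAM, CDH1, KRT8, KRT18, KRT19 and CDX2 were detected, with means of 13.8 to 1837 CPM (counts scaled to a common library size of 1e+06) in DMSO, while CDX1 had 0 counts in every library and VIL1 and LGALS4 were near 0. Of 12 markers of blood, stromal, vascular, liver and muscle cells, PTPRC, CD3E and COL1A2 had 0 counts in every library. COL1A1, DES and VWF were the 3 of these with enough counts to be tested, and their summed level was 70.5 and 67.8 CPM in the DMSO libraries and 60.7 and 69.0 CPM in the HJ-23 libraries. Mitochondrially encoded mRNAs took 6.59% and 7.73% of counts in the 2 control libraries, and 6.41% and 5.12% in the treated ones. Their part in the results below was not tested.

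Most of the hypoxia-inducible genes were lower after HJ-23, and the lowest against control was ANKRD37. The median log2 fold change of the 37 genes was -0.39, against 0.0086 for all genes tested. The fitted change was negative for 32 of the 37, where 49% of all genes tested were negative, and positive for 5, where 51% were positive. Both HJ-23 libraries lay below both DMSO libraries for 24 of the 37, against 21.2% of all genes tested, and above them for 4, against 24.8%. The fitted change was -0.5 or lower on the log2 scale for 15 of the 37, against 8.43% of all genes, and 0.5 or higher for 0 of the 37, against 8.42%. The genes were listed with earlier results of these data known, so these shares describe the list and do not test it. In these bulk libraries, fewer cells of a kind and less RNA per cell cannot be told apart.

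None of the 37 passed edgeR's quasi-likelihood test at an adjusted p below 0.05 in either direction, a threshold that 0.0284% of all genes passed as lower and 0.0569% as higher. At an unadjusted p below 0.05 there were 17 lower and 0 higher, against backgrounds of 5.25% and 6.77%. DESeq2, the other tool run, called 7 of the 37 lower and 0 higher, where it called 1.11% of its tested genes lower and 1.19% higher. These 7 were ANKRD37, KDM3A, HILPDA, GBE1, PPP1R3B, FAM162A and PLOD2. With edgeR and offsets for transcript GC content and length, 1 of the 37 passed as lower, ANKRD37, and 0 as higher, where 0.0782% and 0.0996% of all genes passed. When 1 library was left out of the edgeR fit, 3 of the 37 passed as lower without DMSO replicate 1 (1.12% of all genes tested there) and 2 without DMSO replicate 2 (0.439%). Without HJ-23 replicate 1 or without HJ-23 replicate 2, 0 of the 37 passed as lower, as did 0% of all genes. With no filter on low counts, 1 of the 37 passed as lower, against 0.0778% of all genes.

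**Figure D1:**
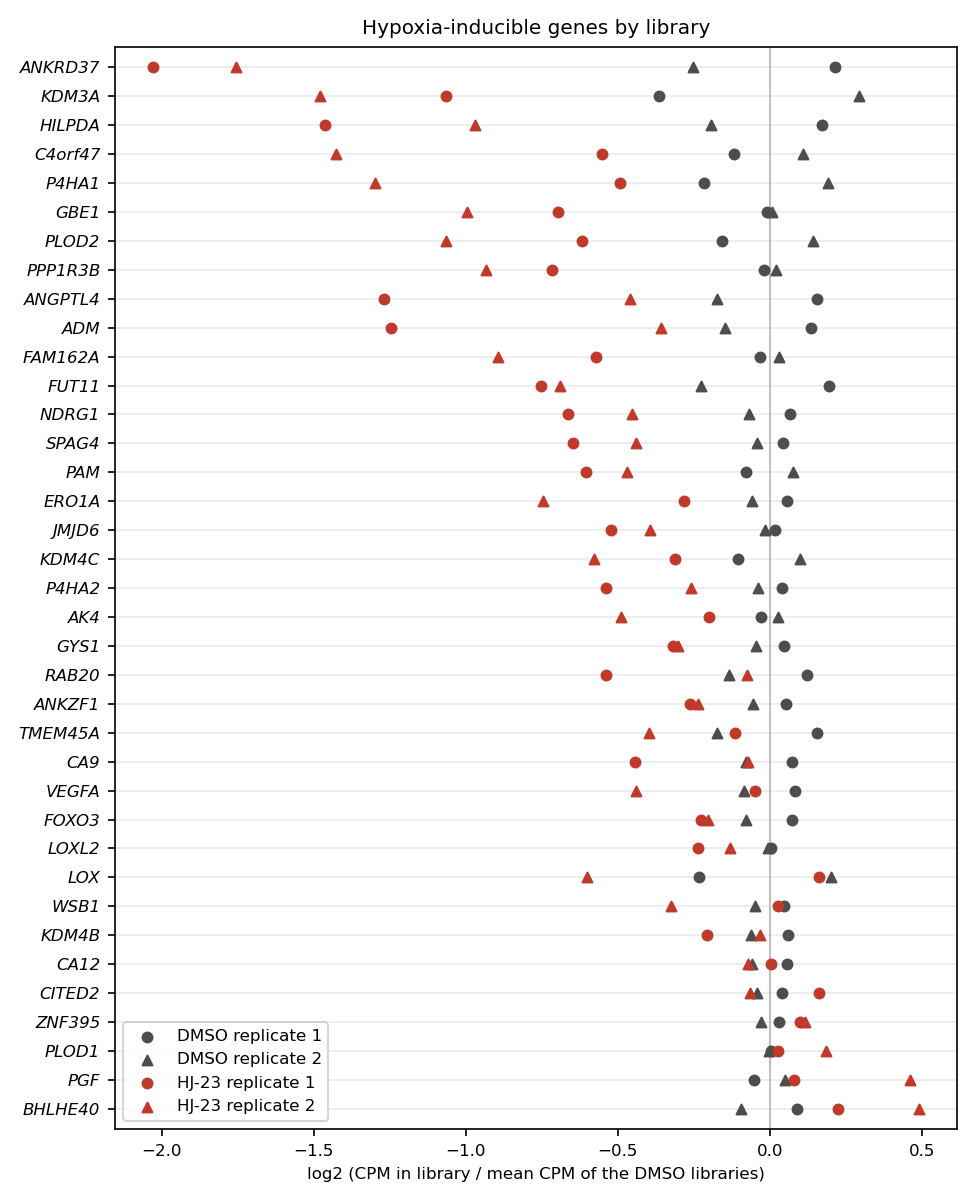
Level of each of the 37 genes in each library as the log2 ratio of its CPM to the mean of the DMSO libraries (horizontal axis), with circles for replicate 1, triangles for replicate 2, grey for DMSO and red for HJ-23. The red points sit left of both grey points for 24 genes, farthest for ANKRD37, and right of both for 4, ZNF395, PLOD1, PGF and BHLHE40.

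ANKRD37 (ENSG00000186352) encodes a small ankyrin repeat protein and is among the most used transcripts in hypoxia signatures. Its level was 68.2 and 49.4 CPM in DMSO and 14.4 and 17.4 CPM in HJ-23, replicate 1 first here and throughout. Every treated library was far below every control library, and the mean of 15.9 ± 2.12 CPM (SD, n = 2) compares with 58.8 ± 13.3 CPM (SD, n = 2) in DMSO. The log2 fold change was -1.89 (SE 0.23, adjusted p = 0.0875, edgeR), a fitted level of 27.1% of control. DESeq2 gave an adjusted p of 9.26e-11, and edgeR with the GC and length offsets gave a log2 fold change of -2.03 (adjusted p = 0.0285). Of the edgeR fits that left out 1 library (the lone library of a group is assumed to vary like the other group), ANKRD37 passed without DMSO replicate 1 (adjusted p = 1.99e-04) and without DMSO replicate 2 (2.50e-07), and did not pass without treated replicate 1 (0.136) or 2 (0.297), fits in which no gene passed as lower. C4orf47, which lies near ANKRD37 on chromosome 4 with 1 protein-coding gene between them in RefSeq, was at 7.27 and 8.51 CPM in DMSO and 5.39 and 2.93 CPM in HJ-23. The groups did not overlap, but the HJ-23 libraries differed from each other by more than the gap to the nearest control, and the log2 fold change of -0.92 (SE 0.32) did not pass (adjusted p = 0.367, edgeR). It was -1.44 when HJ-23 replicate 1 was left out and -0.57 when replicate 2 was.

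The promoter windows of ANKRD37, KDM3A, P4HA1 and GBE1 are printed because these genes had the lowest log2 fold changes among those with a RefSeq window, groups that do not overlap and a mean of at least 10 CPM. Each window runs from 250 bases before the annotated start to 50 bases from it, 5′ to 3′ on the gene's strand, with the sequences from RefSeq, build GRCh38.p14. Capitals mark ACGTG or GCGTG on either strand. The ANKRD37 window (chr4:185396591-185396890, plus strand) holds 3 matches to ACGTG, of which 2 are the overlapping strands of 1 palindrome (CACGTG). The KDM3A window (chr2:86441121-86441420, plus strand, the first of 2 listed) holds 1 match to GCGTG, and the P4HA1 window (chr10:73096817-73097116, minus strand) 1 match to ACGTG. The GBE1 window (chr3:81761596-81761895, minus strand) holds 1 match to ACGTG and 2 to GCGTG.
ANKRD37: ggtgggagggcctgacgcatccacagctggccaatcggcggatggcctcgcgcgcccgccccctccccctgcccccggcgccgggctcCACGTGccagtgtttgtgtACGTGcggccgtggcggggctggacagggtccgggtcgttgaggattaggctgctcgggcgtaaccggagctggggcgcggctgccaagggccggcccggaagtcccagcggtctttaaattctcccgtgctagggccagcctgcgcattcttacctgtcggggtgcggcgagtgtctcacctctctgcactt
KDM3A: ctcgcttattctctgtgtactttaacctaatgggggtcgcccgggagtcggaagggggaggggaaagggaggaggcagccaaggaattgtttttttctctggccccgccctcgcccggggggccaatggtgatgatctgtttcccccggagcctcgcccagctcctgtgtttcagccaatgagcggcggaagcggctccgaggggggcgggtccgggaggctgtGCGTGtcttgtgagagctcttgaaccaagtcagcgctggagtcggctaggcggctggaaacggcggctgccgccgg
P4HA1: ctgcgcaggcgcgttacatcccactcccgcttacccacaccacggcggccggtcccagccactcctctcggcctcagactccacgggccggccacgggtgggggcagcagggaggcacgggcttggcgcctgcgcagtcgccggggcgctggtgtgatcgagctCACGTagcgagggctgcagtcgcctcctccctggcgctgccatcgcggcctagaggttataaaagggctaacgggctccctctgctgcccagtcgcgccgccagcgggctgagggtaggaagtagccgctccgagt
GBE1: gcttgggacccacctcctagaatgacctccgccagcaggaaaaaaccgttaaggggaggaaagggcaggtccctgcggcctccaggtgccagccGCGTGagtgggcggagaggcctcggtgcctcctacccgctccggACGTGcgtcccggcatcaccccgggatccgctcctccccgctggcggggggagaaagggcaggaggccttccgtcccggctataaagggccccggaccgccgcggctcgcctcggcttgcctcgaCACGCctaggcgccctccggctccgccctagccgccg

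RefSeq windows were matched for 27 of the 37 genes, with the first listed window taken for the 7 that had several. The unmatched genes were HILPDA, PPP1R3B, NDRG1, SPAG4, JMJD6, RAB20, ANKZF1, VEGFA, LOXL2 and ZNF395. ACGTG was in 17 of the 27 windows (62.96%), against 26.08% of the 11135 windows of genes tested here and 21.41% of all 35116 windows in the table. GCGTG was in 16 of the 27 (59.26%), against 49.94% and 36.54%. At least 1 of either was in 25 of the 27 (92.59%), against 62.07% of windows of tested genes and 48.45% of all windows. Among the matched genes, either motif stood in 16 of the 17 whose treated libraries lay below both controls and in 9 of the other 10. P4HA2 was the one of the 17 without a match. The 37 genes were listed as known HIF targets, so their shares against the background say nothing of HJ-23. These are letter matches in a 300-base window and say nothing of binding.

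Among the JmjC oxygenases, iron enzymes that need oxygen themselves, KDM3A was well below control and its relatives less so. KDM3A (ENSG00000115548), which removes repressive methyl groups from a histone lysine, was at 101.6 and 160.3 CPM in DMSO and 62.6 and 47 CPM in HJ-23. The groups did not overlap, although the DMSO libraries differed widely. The log2 fold change was -1.26 (SE 0.26, adjusted p = 0.233, edgeR; adjusted p = 7.30e-04, DESeq2). KDM3A passed edgeR only when DMSO replicate 1, its lower control, was left out (adjusted p = 9.37e-05), among the 4 fits without 1 library. JMJD6, a lysyl hydroxylase of splicing factors, was at 90.9 and 88.8 CPM in DMSO and 62.5 and 68.3 CPM in HJ-23. The fitted log2 change was -0.46 (SE 0.14). KDM4C had a log2 fold change of -0.44 (SE 0.18) with groups that did not overlap. KDM4B, a histone demethylase like KDM4C, had one of -0.12 (SE 0.14), and its groups overlapped.

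Both genes of lipid handling that were kept had treated libraries below both controls, as did 21.2% of all genes tested. HILPDA (ENSG00000135245), a lipid droplet protein that inhibits the lipase ATGL, was at 80.1 and 62.2 CPM in DMSO and 25.8 and 36.3 CPM in HJ-23. Both treated libraries were below both controls, at a fitted 43.7% of control, with a fitted log2 change of -1.20 (SE 0.23, adjusted p = 0.218, edgeR; adjusted p = 6.03e-04, DESeq2). HILPDA passed edgeR without DMSO replicate 2 (adjusted p = 0.00346) and in none of the other 3 fits without 1 library. ANGPTL4, a secreted inhibitor of lipoprotein lipase, was at 146.5 and 116.8 CPM in DMSO and 54.6 and 95.6 CPM in HJ-23. HJ-23 replicate 2 stood closer to the controls than to HJ-23 replicate 1, and the log2 fold change of -0.81 (SE 0.29) was -0.48 when HJ-23 replicate 1 was left out and -1.29 when replicate 2 was. VLDLR, a lipoprotein receptor, had 6 and 3 counts in DMSO and 12 and 4 in HJ-23 and was not kept.

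All 3 glycogen genes kept had treated libraries below both controls, as did 21.2% of all genes tested. GBE1 (ENSG00000114480), the glycogen branching enzyme, was at 73.5 and 74.4 CPM in DMSO and 45.7 and 37.1 CPM in HJ-23. The fitted log2 change was -0.84 (SE 0.17, adjusted p = 0.227, edgeR; adjusted p = 0.00336, DESeq2). PPP1R3B (ENSG00000173281), which brings protein phosphatase 1 to glycogen, was at 100.8 and 103.6 CPM in DMSO and 62.2 and 53.5 CPM in HJ-23. By the fit the 2 genes were at 55.9% and 56.6% of control. For PPP1R3B the log2 fold change was -0.82 (SE 0.15, adjusted p = 0.206, edgeR; adjusted p = 0.00149, DESeq2). GYS1, the glycogen synthase of most tissues, was at 106 and 99.6 CPM in DMSO and 82.4 and 83.3 CPM in HJ-23, a log2 fold change of -0.31 (SE 0.13) that was -0.50 with the GC and length offsets. PPP1R3C, a relative of PPP1R3B, had 0 counts in all 4 libraries, where a floor of 6 counts (3 fragments with both mates counted) corresponds to 0.169 to 0.205 CPM.

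**Figure D2:**
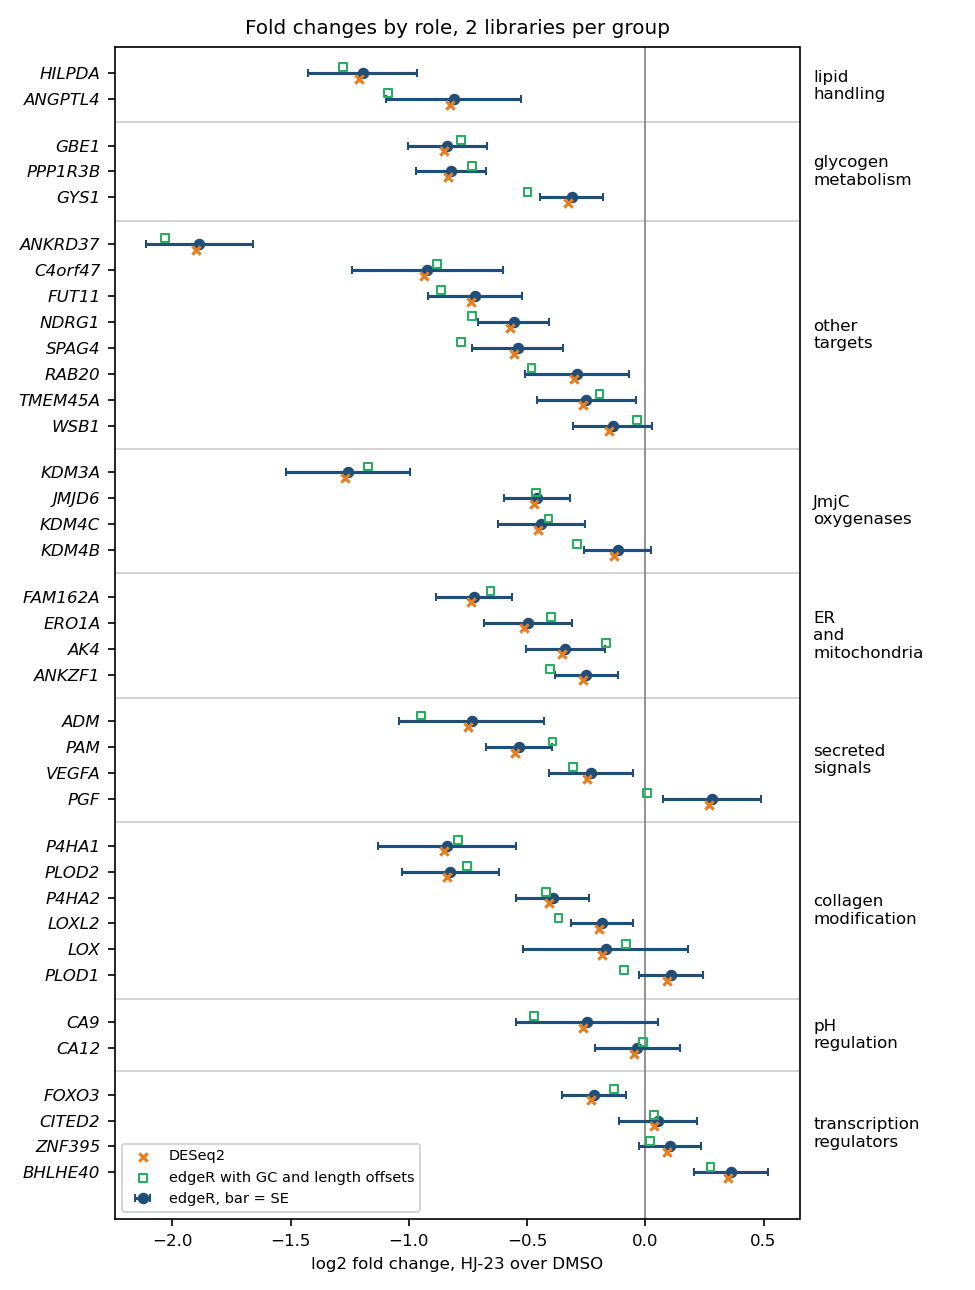
Log2 fold change of HJ-23 over DMSO for each of the 37 genes (horizontal axis), grouped by role, from edgeR (blue, bars are 1 SE, 2 libraries per group), DESeq2 (orange crosses) and edgeR with GC and length offsets (green squares). All edgeR changes are negative in the lipid, glycogen, JmjC oxygenase, pH regulation, endoplasmic reticulum and mitochondria, and other target groups. Transcription regulators lie around 0, and BHLHE40 is highest at 0.36.

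Among enzymes that modify collagen, P4HA1 and PLOD2 were lower on all 4 libraries, and their paralogs P4HA2 and PLOD1 less so or not at all. P4HA1 (ENSG00000122884), a catalytic subunit of collagen prolyl 4-hydroxylase, was at 272.0 and 360.7 CPM in DMSO and 224.9 and 128.7 CPM in HJ-23. The treated libraries were far apart, so the log2 fold change of -0.84 had a wide error (SE 0.29, adjusted p = 0.37, edgeR). Without DMSO replicate 1 it was -1.03, and without DMSO replicate 2 it was -0.65. The log2 fold change of P4HA1 was -1.32 when HJ-23 replicate 1 was left out and -0.52 when replicate 2 was. P4HA2, the alternative subunit, was at 125.0 and 118.4 CPM in DMSO and 83.8 and 101.7 CPM in HJ-23. The fitted log2 change was -0.39 (SE 0.15). For P4HA2 it was -0.28 without HJ-23 replicate 1 and -0.56 without replicate 2. The order of P4HA1 and P4HA2 was thus reversed without HJ-23 replicate 2. PLOD2 (ENSG00000152952), a lysyl hydroxylase that shapes collagen cross-links, was at 92.5 and 113.7 CPM in DMSO and 67.2 and 49.3 CPM in HJ-23. Its groups did not overlap, and the log2 fold change was -0.82 (SE 0.21, adjusted p = 0.278, edgeR; adjusted p = 0.0223, DESeq2). PLOD1 was at 784.2 and 780.0 CPM in DMSO and 795.9 and 888.7 CPM in HJ-23, a log2 fold change of 0.11 (SE 0.14) that was -0.09 with the GC and length offsets. LOXL2 had a log2 fold change of -0.18 (SE 0.13), or -0.37 with these offsets, and LOX, the lysyl oxidase that cross-links collagen, was at 1.74 to 3.04 CPM over all libraries, with overlapping groups. The differences between paralogs were not tested.

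Of the secreted signals, ADM and PAM were lower, while VEGFA overlapped between groups. ADM, the precursor of the vasodilator peptide adrenomedullin, was at 66.4 and 54.6 CPM in DMSO and 25.5 and 47.2 CPM in HJ-23. HJ-23 replicate 2 was nearer to the controls than to the other treated library, and the fitted log2 change of -0.73 (SE 0.31, adjusted p = 0.422, edgeR) was -0.38 when HJ-23 replicate 1 was left out and -1.27 when replicate 2 was. PAM, the enzyme that amidates adrenomedullin and other peptides, was at 288.5 and 321.2 CPM in DMSO and 200.4 and 220.1 CPM in HJ-23. The fitted log2 change was -0.54 (SE 0.14, adjusted p = 0.297, edgeR). VEGFA, the main growth factor for blood vessels, was at 181.0 and 161.0 CPM in DMSO and 165.5 and 126.0 CPM in HJ-23. HJ-23 replicate 1 lay between the controls, and the log2 fold change was -0.23 (SE 0.18, adjusted p = 0.62, edgeR). It was -0.46 when HJ-23 replicate 1 was left out, -0.072 when HJ-23 replicate 2 was, and -0.14 without DMSO replicate 1. PGF, a relative of VEGFA, was at 9.11 and 9.77 CPM in DMSO and 9.98 and 13.0 CPM in HJ-23. Its log2 fold change of 0.28 (SE 0.21) was 0.0062 with the GC and length offsets.

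All 4 genes of the endoplasmic reticulum and mitochondria group had treated libraries below both controls, as did 21.2% of all genes tested. FAM162A (ENSG00000114023), a mitochondrial protein linked to cell death under hypoxia, was at 139.8 and 146.1 CPM in DMSO and 96.2 and 76.9 CPM in HJ-23. The fitted log2 change was -0.72 (SE 0.16, adjusted p = 0.242, edgeR; adjusted p = 0.0155, DESeq2). ERO1A, the oxidase that drives disulfide formation in the endoplasmic reticulum, was at 282.0 and 259.9 CPM in DMSO and 222.6 and 161.5 CPM in HJ-23 (fitted log2 change -0.50, SE 0.19). For ERO1A this was -0.77 when HJ-23 replicate 1 was left out and -0.31 when replicate 2 was. AK4, a mitochondrial adenylate kinase, had a log2 fold change of -0.34 (SE 0.17), and ANKZF1, which acts in ribosome quality control, one of -0.25 (SE 0.13). With the GC and length offsets these were -0.17 for AK4 and -0.40 for ANKZF1. AK4 was at -0.51 without HJ-23 replicate 1 and at -0.23 without replicate 2.

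Other targets included the most abundant gene of the list. NDRG1 (ENSG00000104419), a stress-responsive protein linked to differentiation and metastasis, was at 3233 and 2949 CPM in DMSO and 1950 and 2255 CPM in HJ-23. Both treated libraries were below both controls, at a fitted 68.0% of control, with a fitted log2 change of -0.56 (SE 0.15, adjusted p = 0.309, edgeR). Summed over the 37 genes the level was 7848 and 7507 CPM in DMSO and 5750 and 6111 CPM in HJ-23, and without NDRG1 it was 4615 and 4558 CPM against 3801 and 3857 CPM. FUT11, a fucosyltransferase family member, was at 52.1 and 38.9 CPM in DMSO and 27 and 28.2 CPM in HJ-23 (fitted log2 change -0.72, SE 0.20). SPAG4, a SUN domain protein, was at 8.56 and 8.07 CPM in DMSO and 5.30 and 6.13 CPM in HJ-23 (fitted log2 change -0.54, SE 0.19). RAB20, TMEM45A and WSB1 had log2 fold changes of -0.29, -0.25 and -0.14, and their groups overlapped.

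The cell-surface carbonic anhydrases, which acidify the surroundings of hypoxic cells, were low, and their groups overlapped. CA9, one of the most used protein markers of tumour hypoxia, had 59 and 50 counts in DMSO and 47 and 59 counts in HJ-23, or 1.33 to 1.90 CPM over all libraries. CA12 was at 10.0 and 9.23 CPM in DMSO and 9.65 and 9.15 CPM in HJ-23. Both overlapped between groups, with log2 fold changes of -0.25 (SE 0.30) and -0.03 (SE 0.18).

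Transcription regulators were the role group with a median log2 fold change above 0 (0.079). BHLHE40, a repressor of clock and differentiation genes, was at 517.8 and 456.6 CPM in DMSO and 569.5 and 683.9 CPM in HJ-23. Its treated libraries lay above both controls, and the fitted log2 change of 0.36 (SE 0.16, adjusted p = 0.434, edgeR) did not pass. It was 0.20 without HJ-23 replicate 2. ZNF395 was at 92.6 and 88.9 CPM in DMSO and 97.1 and 98.2 CPM in HJ-23, a log2 fold change of 0.11 (SE 0.13). CITED2, which competes with HIF for its coactivators and so restrains it, overlapped between groups, with a log2 fold change of 0.05 (SE 0.16). FOXO3, a forkhead factor of stress resistance, had a log2 fold change of -0.22 (SE 0.13), with treated libraries just below the controls.

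Set per kilobase of transcript, the levels of the 37 genes spanned a wide range in DMSO. NDRG1 was highest at 823.2 CPM per kb, followed by PLOD1 at 266.0, BHLHE40 at 140.3 and P4HA1 at 111.2 CPM per kb. LOX was lowest at 0.52 CPM per kb, with CA9 at 1.11 and CA12 at 1.5 CPM per kb. ANKRD37 and HILPDA, which differed most from control together with KDM3A, were at 51.5 and 52.7 CPM per kb in DMSO and at 13.9 and 23.0 CPM per kb in HJ-23. These 2 genes do not differ from each other in DMSO beyond the spread of their libraries. Lengths come from GENCODE 29, and the sources used here do not give the annotation used for counting.

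The libraries of a group differed from each other along GC content, and the hypoxia-inducible genes followed this. Over the 37 genes, the log2 ratio of HJ-23 replicate 2 to replicate 1 had a Spearman correlation of 0.80 with transcript GC content, and that of DMSO replicate 2 to replicate 1 one of -0.49. Over 13985 genes with a count in every library these values were 0.63 and -0.35. All points of one correlation share the same pair of libraries. ADM (58.5% GC) and ANGPTL4 (63.3%) were lower in HJ-23 replicate 1, and P4HA1 (40.8%), PLOD2 (37.6%), LOX (39.6%) and C4orf47 (38.1%) were lower in HJ-23 replicate 2. The fold change itself had a Spearman correlation with GC of 0.29 over the 37 genes and 0.38 over all genes tested. The median GC content of the 37 genes was 50.2%, near the 50.1% of all genes tested. With offsets for GC and length, the median log2 fold change of the 37 was -0.42, against -0.027 for all genes.

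**Figure D3:**
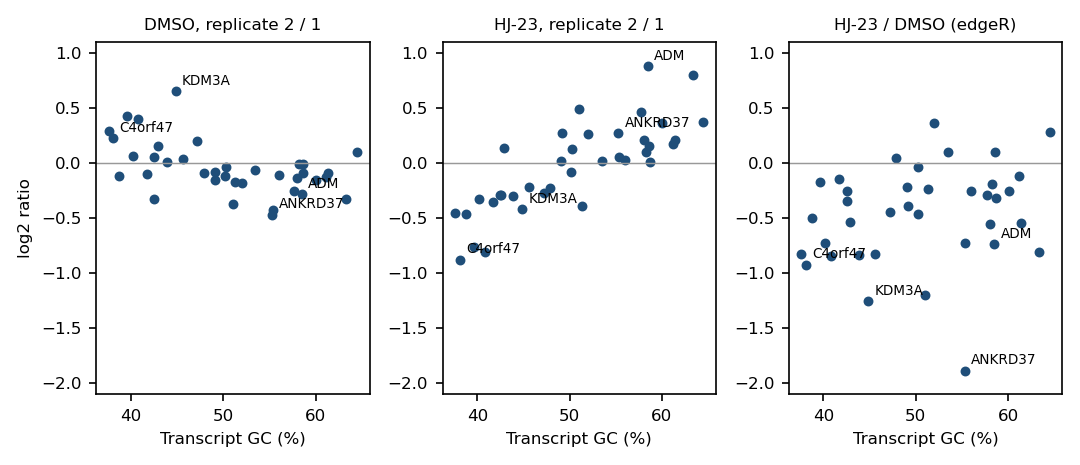
Transcript GC content (horizontal axis, %) of the 37 genes against the log2 ratio of replicate 2 to replicate 1 in DMSO (left) and in HJ-23 (middle), and against the log2 fold change of HJ-23 over DMSO (right). Points slope upward in the middle panel (Spearman 0.80) and downward in the left panel (-0.49), while on the right ANKRD37 and KDM3A lie lowest at middle GC contents.

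The rest of the pathway was read from lists of HIF machinery and of other HIF targets. Of 18 genes of the HIF machinery, 17 were tested and 0 passed with edgeR or DESeq2 in either direction (unadjusted p below 0.05 in edgeR: 1 lower, 1 higher). The fitted changes of these genes had a median of 0.021, and 8 of 17 were negative, where 49% of all genes tested were. At an unadjusted p below 0.05 in edgeR, 5.25% of all genes tested were lower and 6.77% higher. HIF1A, the best known alpha subunit, was at 114.1 and 181.0 CPM in DMSO and 159.4 and 86.9 CPM in HJ-23, so its groups overlapped (fitted log2 change -0.26, SE 0.35). EPAS1, the other main alpha subunit, was at 172.5 and 176.5 CPM in DMSO and 151.9 and 153.3 CPM in HJ-23 (fitted log2 change -0.19, SE 0.13). EGLN1, the prolyl hydroxylase that marks HIF for destruction and is itself a HIF target, was at 117.6 and 107.6 CPM in DMSO and 79.6 and 67.3 CPM in HJ-23 (fitted log2 change -0.62, SE 0.15, adjusted p = 0.278, edgeR). Of 21 glycolytic HIF targets, 21 were negative, against 49% of all genes tested, with a median of -0.52. As lower, 0 passed with edgeR, against 0.0284% of all genes, and 13 had an unadjusted p below 0.05, against 5.25%. DESeq2 called 8 of the 21 lower, where it called 1.11% of its tested genes lower. Of 3 mitophagy genes, BNIP3L, a receptor that marks mitochondria for removal, fell by 1.98 on the log2 scale (SE 0.15, adjusted p = 0.0304, edgeR), from 155.4 and 177.8 CPM in DMSO to 44.1 and 40.6 CPM in HJ-23. BNIP3, its relative, had a log2 fold change of -0.89 (SE 0.16) that did not pass (adjusted p = 0.206, edgeR; adjusted p = 0.00115, DESeq2). FUNDC1, another mitophagy receptor, had one of 0.09 (SE 0.18), and its groups overlapped. The glycolytic list and the 37 genes were measured in the same libraries, and no test compared them.

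**Figure D4:**
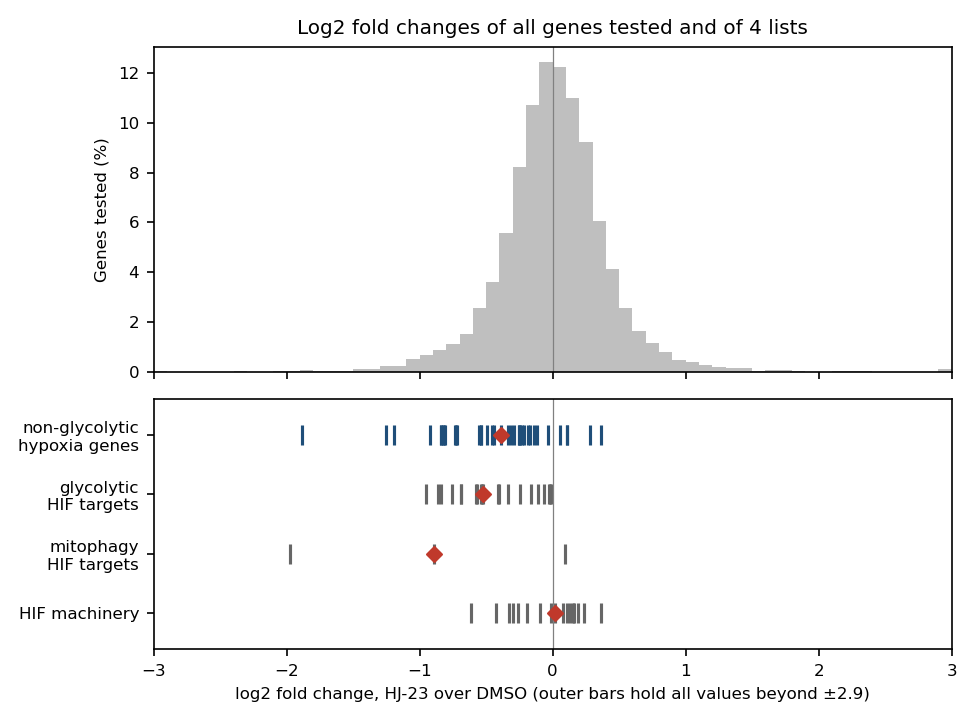
Distribution of log2 fold changes of HJ-23 over DMSO for all 14062 genes tested (upper panel, percent of genes per bin of 0.1, with the outer bars holding all values beyond the axis) and for single genes of 4 lists (lower panel, ticks, with red diamonds at the medians). The medians of the non-glycolytic (-0.39), glycolytic (-0.52) and mitophagy (-0.89) HIF targets lie left of 0, and that of the HIF machinery (0.021) lies near 0. The mitophagy list holds 3 genes, of which FUNDC1 lies right of 0 (0.09).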

How the data were processed

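The authors deposited 1 table of whole-number counts per gene for each library, without normalization, as the values show. HISAT2, RSEM, Trimmomatic, FastQC and bedtools are listed in the submitters' processing notes, with no roles; which of them counted, the strand setting and the build used: not given in the sources used here. Low counts were even in 69.6% to 72.3% of values per library, against 49.7% to 50.8% of counts above 50, the pattern of counting both mates of a fragment. Overlapping genes and close paralogs may share reads. Of the gene identifiers, 20148 got symbols from the supplied names, 76 only from GENCODE 29, and 39 got none. Groups and replicate numbers came from the titles.

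In R 4.3.3, counts were fitted here by edgeR 4.0.16 with TMM scaling, filterByExpr and robust quasi-likelihood fits, legacy form (2 residual and 3.98 prior degrees of freedom), with Benjamini-Hochberg adjustment over 14062 genes and a threshold of 0.05. Standard errors were taken as the fitted change over the root of its F statistic. CPM levels use the TMM-scaled library size. DESeq2 1.42.0 and the other alternatives are given in the closing section. GC and length offsets came from a smooth fit per library (mgcv 1.9.3) on the principal GENCODE 29 transcript. The scripts were tested on simulated data. No 2 libraries held identical counts, and chi-square per degree of freedom was 37.9 within DMSO and 73.7 within HJ-23.

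All 37 kept genes are named, by role, with values per library where the groups do not overlap and the change is at least 0.5 on the log2 scale, and for others where a sentence turns on them; the choice of these others was made with their values in view. The members, their roles and the lists were chosen with earlier results of these data known.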

Additional observations from a re-analysis of the deposited data

How the results depend on the processing

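Over 12 alternatives the median log2 fold change of the 37 genes stayed between -0.47 and -0.37. The share of all genes tested with treated libraries below both controls, 21.2%, was taken in the main fit only. The counts of this kind given next therefore have no background of their own. Treated libraries lay below the controls for 24 genes with other size factors or filters. With the GC and length offsets there were 28, of which 23 were among the main 24. Leaving out a library can only add to this count (25 to 31). The number passing as lower, 0 in edgeR, was 7 with DESeq2, 1 with no filter (ANKRD37, adjusted p = 0.0351, edgeR), 1 with the GC and length offsets, and 0 to 3 without 1 library. The 3 without DMSO replicate 1 were ANKRD37, KDM3A and P4HA1, and the 2 without DMSO replicate 2 were ANKRD37 and HILPDA; none passed without an HJ-23 library, where 0 of all genes passed in either direction. It stayed 0 with size factors from DESeq2, a filter of 10 counts in 2 libraries and the newer form of edgeR. The number passing as higher stayed 0 in all of these.

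The replicate numbers appear in both groups, but nothing says that they pair cultures. Deviations of same-numbered libraries correlated at -0.24 over 14062 genes, so the numbers were not treated as pairs. With the number as a replicate block 6 passed as lower (ANKRD37, KDM3A, HILPDA, P4HA1, ANGPTL4 and PLOD2), against 1.12% of all genes, and with the block and the GC and length offsets 0, as for all genes. P4HA1 (adjusted p = 0.0274, edgeR) and ANGPTL4 (0.0391) passed with the block and in neither edgeR nor DESeq2 without it, on all 4 libraries.

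Of 444 values of single genes under these alternatives, 416 kept their direction and side of the threshold, 20 passed where they had not, and 8 changed sign. PLOD1 was -0.0896 with the GC and length offsets and -0.0891 with the block and these offsets. Without 1 library, CA12 ranged from -0.11 to 0.026, LOX from -0.62 to 0.14, CITED2 from -0.084 to 0.14 and WSB1 from -0.34 to 0.0026. Changes closer to 0 than 0.3 that kept their sign also moved by over 1.5 times: without 1 library RAB20 ranged from -0.56 to -0.094, TMEM45A from -0.43 to -0.077, CA9 from -0.47 to -0.093, KDM4B from -0.23 to -0.053, and PGF from 0.056 to 0.44. With the GC and length offsets ZNF395 was 0.021 and FOXO3 -0.13. The cause was not tested. LOX and CA9 rest on 47 to 105 counts per library, which limits their precision.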
